A study of Danio rerio with 6 samples.

Results

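The genes examined here are those that span at least 300 kb of a zebrafish chromosome, from the first to the last annotated base, introns included. They were chosen from the length column of the count table, leaving out chromosome 4, and number 158 of 25190 genes (0.627%). The 11 genes of that length on chromosome 4 were left out. Retinas came from larvae at 5 dpf (days post fertilization) of 2 genotypes: *pde6c* larvae, homozygous for the w59 allele of the cone phosphodiesterase gene, and WT larvae. There were 3 samples of each genotype, and each sample was a pool of 3 retinas from 3 larvae, dark-adapted before dissection. The *pde6c* larvae came from heterozygous parents and had been picked by a visual behaviour test, and larvae were genotyped after dissection. WT larvae came from other parents, which were WT siblings of the heterozygous ones, so genotype and parentage cannot be told apart. The amplified cDNA of all 6 samples was sequenced together on the same lanes.

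Very long genes owe their length to introns, and in vertebrates they are concentrated among genes of the nervous system, such as those for synaptic adhesion proteins, channels and scaffolds. An RNA polymerase needs a long time to cross such a gene, so at any moment many of its transcripts are unfinished and still carry introns. A count over the whole span takes in these unspliced fragments, whereas FPKM divides fragments assigned to the annotated transcripts by the length of the transcript.

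Total counts lay between 18757605 and 22510222 fragments a sample. Between replicates of a genotype the variance was 33.0 to 46.7 times that of sampling noise in their counts (chi-square per degree of freedom). Within a genotype no library thus duplicates another. The label check rested on FPKM. PDE6C (ENSDARG00000100397, chromosome 12) had 60.1, 140.2 and 84.8 FPKM in *pde6c* retinas, against 445, 655 and 520.0 FPKM in WT retinas (limma, adjusted p = 0.0091), without overlap, while its count was 0 in all 6 libraries because 1 other gene covers its whole span. Cone markers moved with genotype. Of 14 tested, 9 were lower and 1 was higher in *pde6c*, and their summed level was 6599 to 9263 CPM (fragment counts scaled to the library total) in *pde6c* against 15992 to 18146 CPM in WT. Of the 17 cone markers, 3 (PDE6C, PDE6H and opn1mw2) had no counted fragment. Rod markers summed to 1409 to 1976 CPM in *pde6c* and 2175 to 3119 CPM in WT, with 3 of 12 lower. In these bulk samples, fewer cells of a type and less RNA per cell cannot be told apart.

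The very long genes were among the most heavily counted genes of the retina. Their spans ran from 300.1 kb to 1082 kb with a median of 365 kb, against 14.0 kb over all genes. They lay on 24 chromosomes, from 3 genes on chromosome 22 to 10 on chromosome 15, and 154 of them had a symbol. Their median level was 394 CPM, against 4.47 CPM for the 23399 shorter genes. Of the 158, 129 (81.6%) reached 100 CPM and 23 reached 1000 CPM, whereas 9.44% of shorter genes reached 100 CPM. They made up 35 of the 100 genes and 100 of the 1000 genes with the most fragments.

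By FPKM the same genes were far less prominent. Their median was 13.7 FPKM against 3.19 FPKM for shorter genes, 95 (60.1%) reached 10 FPKM against 31.1% of shorter genes, and 8 reached 100 FPKM. Only 11 were among the 1000 genes of highest FPKM. Per kb of span, the 157 very long genes that passed the low-count filter had a median of 1.02 CPM. Among genes that passed, it was 1.04 CPM under 10 kb and 0.677 to 0.794 CPM in the 3 classes between 10 and 300 kb. The filter kept 99.4% of the very long genes but 46.7% of genes under 10 kb, so the median of the latter leaves out many weakly counted genes.

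The share of a library on these genes shows the same gap. In counted fragments they held 7.61%, 8.64% and 8.69% of the 3 *pde6c* libraries, against 7.36%, 8.67% and 9.02% of the 3 WT libraries. The genotypes overlapped, and the mean was 8.31 ± 0.608% in *pde6c* and 8.35 ± 0.875% in WT (SD, n = 3 each). In the summed FPKM they held 0.886%, 0.807% and 0.769% in *pde6c*, against 0.874%, 0.737% and 0.610% in WT. WT replicate 3 was thus highest by counts and lowest by FPKM; in that library a single 31.8-kb gene without a symbol (ENSDARG00000105065) took 19.8% of the summed FPKM.

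**Figure D1:**
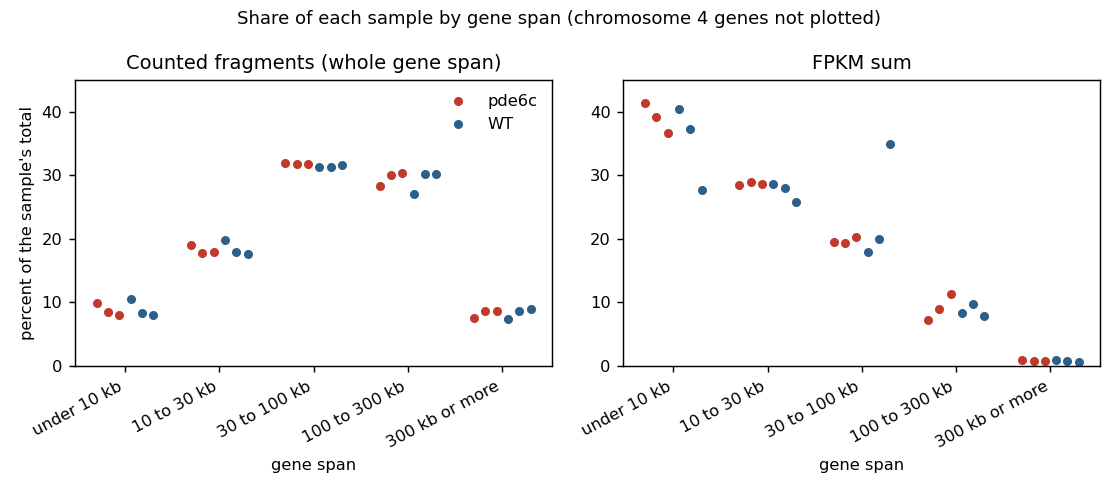
Percent of all counted fragments (left) and of the summed FPKM (right) on genes of 5 span classes (x axis), 1 point per sample with *pde6c* in red and WT in blue, chromosome 4 genes not plotted. Genes of 300 kb or more hold 7.36 to 9.02% of the fragments and 0.610 to 0.886% of the FPKM, and genes under 10 kb hold 7.95 to 10.6% of the fragments and 27.7 to 41.3% of the FPKM.

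The relation of count to FPKM can be written as a length. CPM divided by FPKM is the number of kb that a fragment count would have to be divided by to give the FPKM. For a fully spliced gene it would follow the length of the transcript. CPM was scaled to counted fragments, and the total behind the FPKM is not known here. This ratio is therefore a relative length and not a calibrated one. It was 24.4 kb in the median over the 139 very long genes with at least 1 FPKM in 3 or more libraries (quartiles 15.7 and 41.2 kb), and 1.99 kb over 13308 shorter genes (quartiles 0.984 and 4.05 kb). Of the 139 genes, 136 lay above the upper quartile of shorter genes. The median was 6.34% of the gene's own span.

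The median of this length was larger in each longer span class. It was 0.770 kb below 10 kb of span, then 1.81, 4.15 and 10.4 kb in the classes up to 300 kb, and 24.4 kb from 300 kb. Spearman's rank correlation between span and this length was 0.81 across shorter genes and 0.42 across the very long genes. As both are values of the same 6 libraries and genes are not independent replicates, these are descriptions.

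By sample the median length of the very long genes was 25.2, 28.9 and 26.3 kb in *pde6c* retinas, against 22.0, 25.01 and 25.3 kb in WT retinas. The highest value was that of *pde6c* replicate 2 and the lowest that of WT replicate 1, and the genotypes overlapped. Shorter genes had 2.25, 2.05 and 2.04 kb in *pde6c* and 2.14, 1.94 and 1.99 kb in WT.

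Single genes departed widely from the median. At the low end was DLG4 (postsynaptic density scaffold PSD-95; ENSDARG00000039385, chromosome 23), with 1.16 CPM and 13.8 FPKM on average. Its span is covered to 89.6% by 13 other genes, and fragments that touch more than 1 gene were not counted. PCDH15 on chromosome 12 followed with 1.77 kb, then ARVCF (a catenin that binds classical cadherins) with 3.39 kb and TBC1D7 (a subunit of the TSC complex, which restrains mTOR) with 4.36 kb. TBC1D7 is covered to 69.5% by 10 genes, and the other two by none.

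At the high end were GRID1 on chromosome 12 (a delta-type glutamate receptor) with 259 kb, TMEM132C with 102 kb, ENSDARG00000017795, which has no symbol, with 100.4 kb, and IL1RAPL2 (an interleukin 1 receptor-like synaptic adhesion protein) with 96.1 kb. None of these 4 overlaps another gene of the table. In each of them the FPKM stayed below 10 in all 6 samples, and GRID1 had 417 CPM and 1.61 FPKM on average.

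Below 1 FPKM the gap could be wider still. sult2st3, a sulfotransferase gene and one of the 5 longest (711 kb), had 709, 908 and 802 CPM in *pde6c* retinas, against 647, 825 and 761 CPM in WT retinas. The FPKM was 0.485, 0 and 0.155 in *pde6c*, against 0.176, 0.331 and 1.59 in WT. Other genes, 13 in all, cover 45.1% of its span. In total 18 very long genes had a mean FPKM under 1, 3 were listed at 0 FPKM in all 6 samples, and 16 were listed at 0 in at least 1 sample.

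Overlap with other genes was more frequent than among shorter genes: 45 of the 158 spans (28.5%) touched another gene, against 20.2% of shorter genes, and 14 were covered to 50% or more, by up to 23 genes. One of these, zgc:174855, is wholly covered and had no count, so it was the single very long gene that did not pass the filter. The part of overlapping genes in a single gene's count was not tested.

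**Figure D2:**
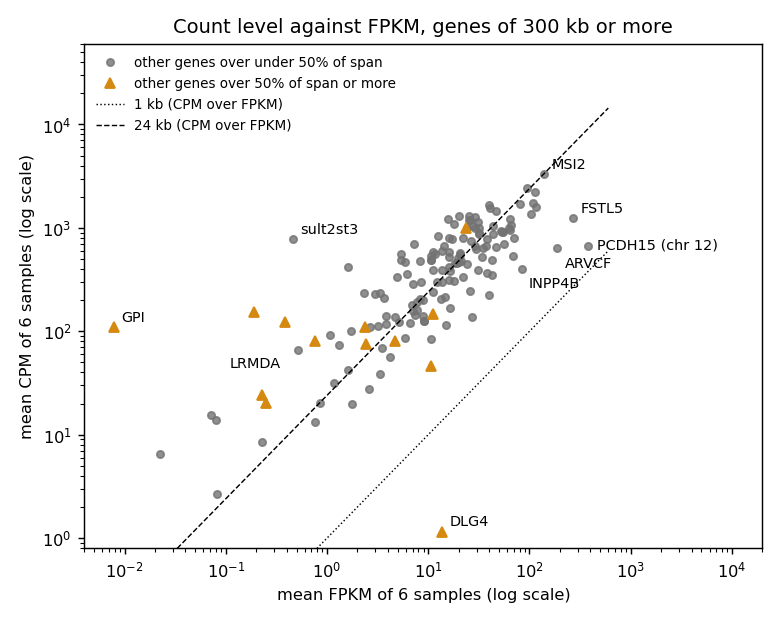
Mean CPM (y axis, log scale) against mean FPKM (x axis, log scale) of the very long genes above 0 in both, 1 point per gene; triangles are genes covered to 50% or more of their span by other genes, and the lines mark constant CPM over FPKM. Most genes lie along the dashed line, DLG4 lies far below it at 1.16 CPM and 13.8 FPKM, and sult2st3 and GPI far above it.

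By count the leading genes were MSI2 (an RNA-binding protein of the Musashi family, which in mouse photoreceptors takes part in splicing), with 3282 CPM on average and the fifth highest count of the table, DLG2 (the synaptic scaffold PSD-93, 2432 CPM), nrxn3b (a presynaptic neurexin, 2245 CPM), NCAM1 (a neural cell adhesion molecule, 1731 CPM), KCNMA1 (the large-conductance calcium-activated potassium channel, 1702 CPM) and IQSEC1 (an exchange factor for Arf GTPases at synapses, 1671 CPM). None of these 6 overlaps another gene.

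By FPKM the order was PCDH15 on chromosome 12 (375), FSTL5 (a secreted follistatin-like protein, 271), ARVCF (188), MSI2 (140.2), RBFOX1 (a splicing regulator of neurons, 116) and nrxn3b (113). Neighbours in this order were not separated by more than their spread over samples. PCDH15 had 286, 311 and 492 FPKM in *pde6c* and 524, 125 and 509 FPKM in WT, a range that overlaps those of FSTL5 and ARVCF. MSI2 and nrxn3b were in both lists. The 2 rankings of all members went together with a Spearman's rank correlation of 0.81 across the 158 genes, as they did among shorter genes (0.81).

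The 5 longest genes were MACROD2 (an ADP-ribosyl hydrolase), CTNNA2 (the neuronal alpha catenin), ASIC2 (an acid-sensing ion channel), GRID1 on chromosome 12 and sult2st3, with spans of 1082, 811, 802, 722 and 711 kb. Their mean levels lay between 417 and 993 CPM. Their log2 fold changes lay between -0.03 and 0.12, each smaller than its standard error of 0.14 to 0.16. For MACROD2 the sign turned under scaling by the total count (0.04).

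Replicate 1 of both genotypes was low in the very long genes. Relative to each gene's mean over the 6 samples on the log2 CPM scale, the median over 157 genes was -0.18, 0.05 and 0.09 in *pde6c* retinas, against -0.22, 0.11 and 0.14 in WT retinas. The median over shorter genes stayed between 0.00 and 0.03 in all 6 samples. Replicate 1 was thus the low library in each genotype, and the genotypes overlapped.

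Gene by gene the same libraries were low. Replicate 1 held the lowest CPM of the 3 *pde6c* samples in 121 of 157 very long genes (77.1%) and the lowest of the 3 WT samples in 131 (83.4%). To set this against genes of similar level, genes between 64 and 2048 CPM were taken. Here replicate 1 was lowest in 81.6% of 136 very long genes in *pde6c* and 87.5% in WT, while among 3315 shorter genes it was lowest in 45.7% in *pde6c* and 45.2% in WT. Genes under 10 kb took 9.92% of fragments in *pde6c* replicate 1 and 10.6% in WT replicate 1, against 7.95 to 8.43% in the other 4 libraries. The 10 genes with the most fragments in each library also took the largest share in replicate 1 of each genotype. It was 3.89% in *pde6c* and 5.30% in WT, against 3.14 to 4.33% in the other 4. These 10 genes differ between libraries and include very long genes such as MSI2. Genes of 100 to 300 kb took a smaller share there, 28.3% in *pde6c* and 27.1% in WT, against 30.1 to 30.4% in the other 4. A low replicate 1 was thus not particular to genes of 300 kb or more. The part of these differences between libraries in the low values was not tested.

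**Figure D3:**
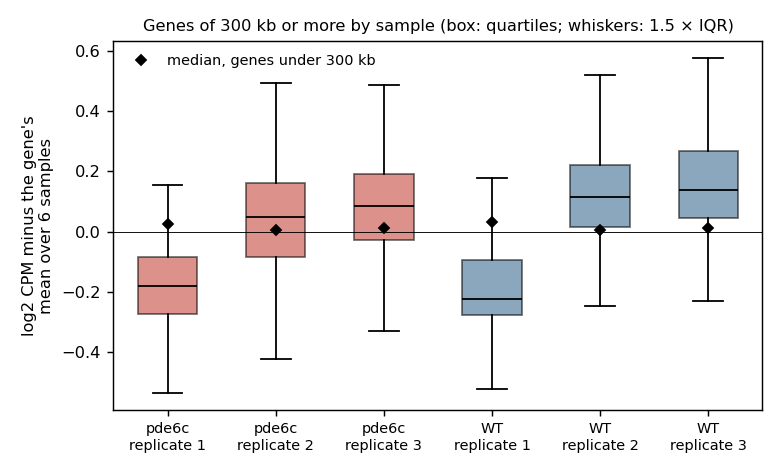
Distribution over 157 very long genes of log2 CPM minus the gene's mean over 6 samples (y axis), 1 box per sample (quartiles, with the median as a line), *pde6c* in red and WT in blue; diamonds give the median of shorter genes. Replicate 1 of each genotype is the low box, with medians of -0.18 in *pde6c* and -0.22 in WT.

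Between genotypes, 7 of the 157 tested genes (4.46%) passed an adjusted p under 0.1 in edgeR's quasi-likelihood test with genotype as the single term, beside 3.69% of all 17242 genes tested. In *pde6c* 1 was higher, beside 1.40% of all genes, and 6 were lower, beside 2.29%. The 7 were PCDH15 on chromosome 13, DIAPH3, RBFOX3, ntm, INPP4B, TENM2 and LRMDA. At an unadjusted p under 0.05 there were 15 of the 157, beside 2067 of all 17242 genes. In 11 genes all 3 *pde6c* values lay below all 3 WT values, beside 8.75% of all genes, and in 2 genes (LRMDA and TTN) above, beside 8.15%, on the CPM scale. Since samples are pools of different larvae, the test measures the spread between pools. Fitted with the replicate number as a block, 16 very long genes passed, beside 5.71% of all genes. The 9 added include MSI2, SHANK3 and cacna1db. Whether same-numbered pools were handled together is not said in the sources used here.

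The changes of the very long genes centred near 0. Their median log2 fold change was -0.03 (quartiles -0.17 and 0.10), beside 0.00 over all genes tested, with 86 values below 0 and 71 above. The sign of this median turned under scaling by the total count (0.05) and without *pde6c* replicate 1 (0.06), WT replicate 2 (0.02) or WT replicate 3 (0.03). The changes were mostly small: 94.9% lay within 0.5 on the log2 scale, against 69.6% of shorter genes. These log2 fold changes had an SD of 0.31. For shorter genes the SD was 0.84 below 10 kb and 0.41 at 100 to 300 kb.

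How they compare with shorter genes depended on what was held equal. Held to equal CPM, in 12 classes of 1 log2 unit weighted by their number of very long genes, 9.28% of shorter genes were called, against 4.46% of the very long genes. In the 11 classes with at least 20 shorter genes it was 8.29%. The SD of log2 fold changes was 0.40 for these shorter genes against 0.31, and the very long genes had the smaller SD in 9 of the 10 classes with at least 2 of them. At equal FPKM, 4.42% of shorter genes were called, with an SD of 0.60. These are descriptions without a test.

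Among the classes, the one from 512 to 1024 CPM held the largest number of very long genes. In it 1 of 42 was called (2.38%), against 16 of 174 shorter genes (9.20%), and the median log2 fold change was -0.02 against -0.06. From 64 to 128 CPM, 1 of 22 was called (4.55%), against 6.95% of 1612 shorter genes. Over all classes the median log2 fold change of the very long genes minus that of shorter genes was 0.05. In the classes with at least 20 shorter genes it was 0.03. Between replicates, the median deviation of the very long genes had an SD of 0.14 in *pde6c* and 0.20 in WT.

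**Figure D4:**
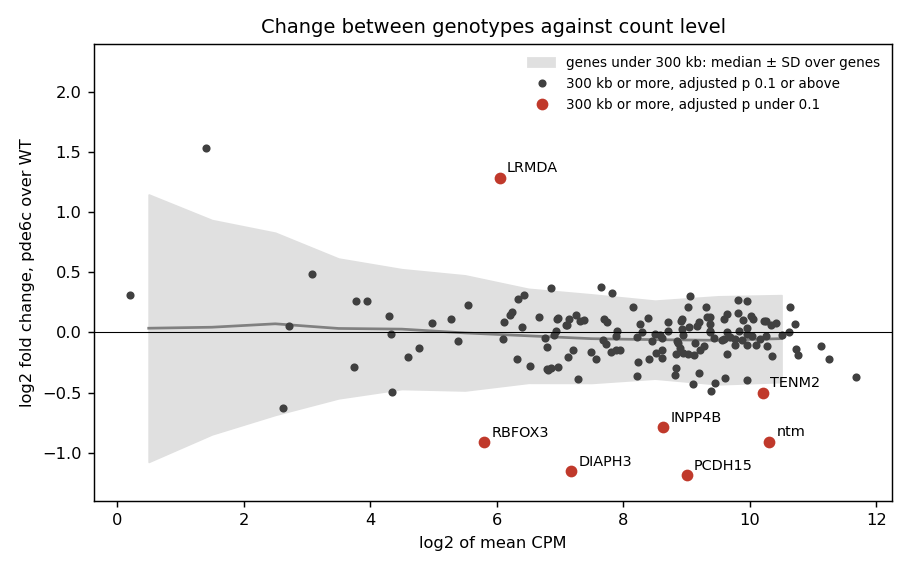
Log2 fold change, *pde6c* over WT (y axis), against log2 of mean CPM (x axis) for the very long genes, 1 point per gene with the 7 called in red; the grey band is the median ± SD over shorter genes in classes of 1 log2 unit that hold at least 20 of them. In *pde6c*, 6 called genes lie below 0 at -0.50 to -1.19 and LRMDA lies above at 1.29.

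Among adhesion proteins, 3 genes fell. PCDH15 (ENSDARG00000098257, GRCz10 chromosome 13, 41044796 to 41420889) encodes a protocadherin of photoreceptor and hair cell processes. It had 261, 350.2 and 327 CPM in *pde6c* retinas, against 594, 752 and 793 CPM in WT retinas, without overlap between genotypes. The level in *pde6c* was 0.44 times that in WT (log2 fold change -1.19 ± 0.16 SE, edgeR adjusted p = 0.00028). By FPKM the samples also separated, at 10.4, 9.27 and 10.1 in *pde6c* against 28.8, 30.01 and 30.4 in WT (log2 difference of FPKM + 1 of -1.49 ± 0.22 SE, limma adjusted p = 0.021).

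The gene of the same symbol on chromosome 12 (ENSDARG00000008127, 6532730 to 6871872) was just outside the threshold. It had 512, 616 and 544 CPM in *pde6c*, against 649, 833 and 858 CPM in WT. The genotypes did not overlap, and the log2 fold change was -0.49 ± 0.15 SE (edgeR adjusted p = 0.11). It passed in 4 of 12 alternative fits, among them DESeq2 (adjusted p = 0.078). The files do not give copy letters for the pair, and the counts use only fragments that map to 1 place. A shorter gene on chromosome 12 is listed as pcdh15b (ENSDARG00000071772, 8.89 kb). At 6.75 CPM on average, it had a log2 fold change of -0.90 ± 0.44 SE (edgeR adjusted p = 0.45).

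The other 2 adhesion genes are ntm and TENM2. ntm (neurotrimin, a membrane-anchored immunoglobulin protein of neurons; ENSDARG00000018065, chromosome 10, 30077178 to 30703636) had 777, 1109 and 752 CPM in *pde6c* retinas, against 1345, 1837 and 1773 CPM in WT retinas. By CPM all *pde6c* samples were below all WT samples, with a log2 fold change of -0.91 ± 0.17 SE (edgeR adjusted p = 0.0049). By FPKM the genotypes overlapped, with 22.6, 13.4 and 4.30 in *pde6c* against 79.9, 33.3 and 20.5 in WT (limma adjusted p = 0.38). TENM2 (teneurin 2, which pairs with latrophilin across synapses; ENSDARG00000037122, chromosome 14, 28860295 to 29419805) had 939, 1003 and 989 CPM in *pde6c*, against 1129, 1373 and 1643 CPM in WT.

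TENM2 samples did not overlap, but the change was the smallest of the 7, at -0.50 ± 0.15 SE (edgeR adjusted p = 0.095). It lost the call in 8 of 12 alternative fits, with adjusted p-values of 0.0071 to 0.45 over edgeR and DESeq2 fits and the highest without WT replicate 3. The other 6 called genes passed in all 12 of these fits.

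Among regulators of the cytoskeleton and of signalling, 2 genes fell. DIAPH3 (a formin that elongates actin filaments; ENSDARG00000090785, chromosome 11, 31417517 to 31802038) had 86.2, 101 and 82.2 CPM in *pde6c* retinas, against 165, 218 and 217 CPM in WT retinas. The level in *pde6c* was 0.45 times that in WT (log2 fold change -1.16 ± 0.17 SE, edgeR adjusted p = 0.00068), without overlap. The related formin DIAPH2, also very long, had a log2 fold change of 0.06.

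INPP4B (a lipid phosphatase of phosphoinositide signalling; ENSDARG00000075201, chromosome 1, 52294447 to 52632704) had 287, 319 and 265 CPM in *pde6c*, against 495, 448 and 562 CPM in WT. By counts the genotypes separated (log2 fold change -0.79 ± 0.15 SE, edgeR adjusted p = 0.0048). By FPKM they did not, with 182, 67.3 and 44.4 in *pde6c* against 63.6, 89.3 and 55.7 in WT, where the *pde6c* samples took both the highest and the lowest value (log2 difference 0.26 ± 0.46 SE, limma adjusted p = 0.90). Other genes, 2 in all, cover 7.78% of its span.

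RBFOX3, a neuronal splicing regulator known as the antigen NeuN (ENSDARG00000074310, chromosome 3, 8445844 to 8766102), had 41.3, 40.3 and 34.4 CPM in *pde6c* retinas, against 72.5, 82.6 and 63.7 CPM in WT retinas. The log2 fold change was -0.91 ± 0.19 SE (edgeR adjusted p = 0.013), without overlap. Its relative RBFOX1 had a log2 fold change of 0.21 ± 0.13 SE with overlapping genotypes (edgeR adjusted p = 0.61).

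LRMDA was the single gene that rose. It is linked in humans to melanocyte differentiation and albinism (ENSDARG00000057166, chromosome 13, 16791713 to 17333662). It had 90.6, 104 and 86.7 CPM in *pde6c* retinas, against 28.8, 41.9 and 44.7 CPM in WT retinas, each *pde6c* value above each WT value. The level in *pde6c* was 2.44 times that in WT (log2 fold change 1.29 ± 0.20 SE, edgeR adjusted p = 0.0014). The FPKM was listed at 0.981, 0 and 0.1005 in *pde6c* and 0.233, 1.71 and 0.0986 in WT, too low for the FPKM test. No other gene overlaps its span. Markers of pigment epithelium and melanocytes summed to 21.2 to 27.2 CPM in *pde6c* and 17.9 to 33.5 CPM in WT, and overlapped. Of 10 tested, 0 were called by edgeR or DESeq2 and 1 had an unadjusted p under 0.05.

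**Figure D5:**
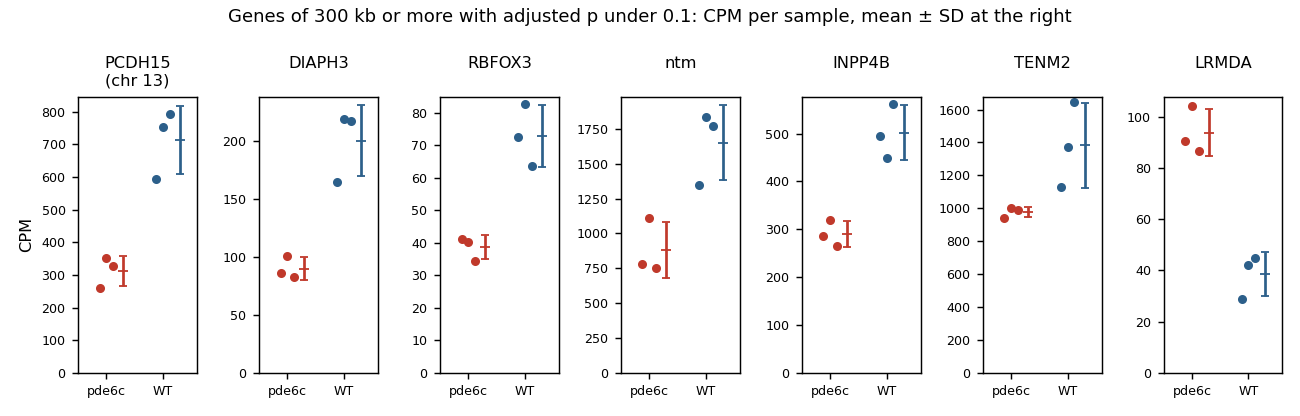
CPM (y axis, from 0) in each sample of the 7 very long genes with an edgeR adjusted p under 0.1, 3 points per genotype, *pde6c* left in red and WT right in blue, with the mean and SD beside the points. In 6 genes all *pde6c* points lie below all WT points, and in LRMDA (86.7 to 104 CPM against 28.8 to 44.7 CPM) all lie above.

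Of the other genes whose samples did not overlap, TTN (the giant sarcomere protein titin) was near the lower end of the levels. It had 7.64, 1.55 and 2.67 CPM in *pde6c* retinas, against 1.24, 1.35 and 1.49 CPM in WT retinas. The difference rests mainly on *pde6c* replicate 1 (log2 fold change 1.54 ± 0.69 SE, edgeR adjusted p = 0.38). Skeletal muscle markers summed to 11.5, 22.1 and 4.52 CPM in *pde6c*, against 11.9, 14.5 and 13.2 CPM in WT. Their sum was thus highest in *pde6c* replicate 2, and their part in TTN was not tested. In addition, 1 other gene covers 41.3% of the TTN span. NBEA on chromosome 15 had 111, 99.1 and 104.6 CPM in *pde6c*, against 139, 118 and 127 CPM in WT (log2 fold change -0.29 ± 0.16 SE, edgeR adjusted p = 0.51). The gap between the highest *pde6c* and the lowest WT value was smaller than the range within either genotype.

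By symbol, 78 of 158 very long genes (49.4%) are in at least 1 of 9 lists, against 7.21% of shorter genes. The lists name gene families that were chosen with earlier results of these data known. Membership goes by the start of the symbol, so the lists miss some genes of their kind. Examples are ASIC2 for ion channels and CAMTA1 for transcription regulators. These shares are thus a description and no test of enrichment. The largest list holds synaptic adhesion and axon guidance genes, of which 27 are very long and 153 are shorter. Of the 27, 2 fell (ntm and TENM2) and 25 did not pass the test, with a median log2 fold change of -0.06, beside -0.06 over the shorter genes of the list, of which 2 rose and 3 fell among 143 tested. In 20 of the 27 the log2 fold change was below 0, beside 86 of all 157 very long genes tested. The related teneurins tenm3 and TENM4 had 0.14 and -0.01, the neurexins nrxn3b, nrxn2a and NRXN3 had -0.11, -0.19 and 0.02, and the plexins PLXNA2 and PLXNA3, receptors for guidance cues of the semaphorin family, had -0.02 and -0.18. Among the 5 cadherins PCDH15 on chromosome 13 fell, and CDH13, cdh4 and FAT3 had log2 fold changes of 0.07, 0.07 and -0.08.

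Of 9 very long neurotransmitter receptor genes, 0 were called by edgeR or DESeq2 and 0 had an unadjusted p under 0.05. Their log2 fold changes lay between -0.10 and 0.11, with a median of 0.00, at a median level of 481 CPM. They include GRIA3 and gria4a (AMPA receptor subunits, -0.10 and -0.02), GRM8 and GRM4 (metabotropic glutamate receptors, -0.01 and 0.10) and GABBR2 (a GABA-B receptor subunit, 0.00). Among 111 shorter receptor genes tested, 5 rose and 3 fell.

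The 6 very long genes of synaptic scaffolds and release had a median log2 fold change of -0.07, and 0 were called by edgeR or DESeq2 with genotype as the single term and all 6 libraries, with 1 at an unadjusted p under 0.05. That gene, SHANK3 (a postsynaptic scaffold), had 563, 603 and 636 CPM in *pde6c* retinas, against 647, 886 and 878 CPM in WT retinas. The samples did not overlap, with a log2 fold change of -0.42 ± 0.15 SE (edgeR adjusted p = 0.20).

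The 4 genes of the ion channel list had a median log2 fold change of -0.25, with 2 at an unadjusted p under 0.05. With genotype as the single term, 0 were called by edgeR or DESeq2. ASIC2, a channel that this list misses, had 0.00. The lowest was cacna1db (an L-type calcium channel subunit), with 772, 844 and 952 CPM in *pde6c* against 1057, 1147 and 1167 CPM in WT (log2 fold change -0.39 ± 0.13 SE, edgeR adjusted p = 0.18), without overlap. Other genes, 12 in all, cover 50.1% of its span. CACNA1G (a T-type calcium channel) and KCNMA1 had -0.36 and -0.14, and cacna2d2a (a calcium channel accessory subunit) 0.27.

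Among 6 transcription and RNA-binding regulators RBFOX3 fell, and MSI2, the most counted very long gene, did not pass the test. MSI2 had 2219.6, 3601 and 2776 CPM in *pde6c* retinas, against 3244, 3976 and 3877 CPM in WT retinas. The genotypes overlapped, with a log2 fold change of -0.37 ± 0.16 SE (edgeR adjusted p = 0.36). Of the 9 cytoskeleton genes DIAPH3 fell, and macf1a (a linker of actin and microtubules) had -0.03 and DOCK3 (a Rac exchange factor) 0.08. Of the 6 kinase and phosphatase genes INPP4B fell and the others lay between -0.09 and 0.15.

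The 6 matrix genes had a median of 0.04, with 0 called by edgeR or DESeq2 and 0 at an unadjusted p under 0.05. AGRN (agrin, a heparan sulfate proteoglycan) had 0.21 and LRP1B (a lipoprotein receptor relative) -0.31. Of the 79 tested genes in none of the 9 lists, 1 passed, LRMDA, and their median was 0.00.

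Both very long PCDH15 genes belong to a list of photoreceptor genes. Of 48 shorter genes of that list that were tested, 19 fell and 1 rose, with a median log2 fold change of -0.51, beside -1.19 for PCDH15 on chromosome 13 and -0.49 for PCDH15 on chromosome 12. Cone markers fell in the same samples, and their part in the lower genes was not tested.

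Tested on FPKM, 1 of 139 very long genes was lower in *pde6c* (limma, adjusted p under 0.1), beside 0.792% of 15782 genes, and 1 was higher, beside 0.507%. The lower one is PCDH15 on chromosome 13, the only very long gene called on both scales. The higher one, named after its values were seen, is CAMTA1 on chromosome 23 (a calmodulin-binding transcription activator; ENSDARG00000077428). It had 21.7, 28.4 and 23.0 FPKM in *pde6c* retinas, against 6.17, 7.12 and 9.64 FPKM in WT retinas, without overlap (log2 difference of FPKM + 1 of 1.56 ± 0.27 SE, limma adjusted p = 0.044). By counts it had 297, 337 and 316 CPM in *pde6c* and 231, 343 and 371 CPM in WT (log2 fold change 0.01 ± 0.17 SE, edgeR adjusted p = 0.99), and the genotypes overlapped. Its FPKM call was lost in 6 of 9 alternatives, 5 of them with a single library left out, with limma adjusted p-values of up to 0.16.

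Counts and FPKM of the same gene did not always change in the same direction. Of the 139 genes tested on both, 88 had the same sign of change. Many changes were small: over 157 genes the count changes had quartiles of -0.17 and 0.10 and a median SE of 0.16. No share of equal signs is given for shorter genes, so this is not shown as a trait of very long genes. The SD of the change was 0.26 by counts and 0.41 by FPKM. Replicates also differed more by FPKM: the median SD between replicates on the log2 scale was 0.34 by FPKM and 0.20 by CPM over 142 genes above 0 in every sample. Shorter genes of equal CPM had 0.27 by FPKM and 0.20 by CPM. FSTL5 shows the difference, with 1027, 1305 and 1223 CPM in *pde6c*, against 1151, 1415 and 1286 CPM in WT, and 178, 198 and 223 FPKM in *pde6c*, against 353, 261 and 411 FPKM in WT. The genotypes overlapped by counts and not by FPKM (limma adjusted p = 0.25).

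The very long genes include 8 symbols held by 2 genes each: CADM1, CAMTA1, GRID1, NBEA, NTRK3, PCDH15, PTPRU and SDK1. In 5 pairs one copy had over 5 times the FPKM of the other and the ranges over the 6 samples did not overlap. The ratio was 18.9 for PCDH15, 17.2 for NBEA (neurobeachin, of membrane traffic to synapses), 10.3 for CADM1 (a synaptic adhesion molecule), 6.90 for GRID1 and 5.08 for SDK1 (sidekick, an adhesion molecule of retinal synapses). For CAMTA1, PTPRU and NTRK3 (a neurotrophin receptor) it was 2.11, 1.39 and 1.15, with overlapping ranges. For GRID1 and PTPRU the order by counts was the opposite of that by FPKM. GRID1 had 238 CPM on chromosome 17 and 417 CPM on chromosome 12, and PTPRU had 416 CPM on chromosome 16 and 560 CPM on chromosome 19. The wide FPKM gap of the PCDH15 pair was not seen by counts, with 669 CPM on chromosome 12 and 513 CPM on chromosome 13. For NBEA the counts were 1055 and 117 CPM, for CADM1 1143 and 227 CPM, and for SDK1 393 and 111 CPM. With genotype as the single term and all 6 libraries, PCDH15 on chromosome 13 was the gene of these pairs that edgeR called on counts, and PCDH15 on chromosome 12 passed in the alternative fits given above.

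At the edge of the selection, macf1a (300126 bases, 1219.6 CPM) and gpd1c (300445 bases, 122 CPM) were just inside, with log2 fold changes of -0.03 and 0.01. LRP8 (299196 bases, 981 CPM) and SORCS2 (299059 bases, 723 CPM) were just outside, with -0.17 and 0.05.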

How the data were processed

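RNA from 3 *pde6c* and 3 WT retina pools was amplified to cDNA with a whole-transcriptome kit and sequenced from both ends. The authors trimmed the reads, aligned them with STAR 2.5.3a to GRCz10 and deposited counts from featureCounts 1.5.2. The count table's header shows that whole genes were counted without strand, and that fragments on more than 1 gene or place were left out. The authors also deposited FPKM from Cufflinks 2.2.1, whose options are not given in the sources used here.

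Counts were tested with edgeR 4.0.16 (R 4.3.3; filterByExpr with a minimum of 10, TMM, quasi-likelihood, genotype only), adjusted over 17242 genes (Benjamini-Hochberg, threshold 0.1). Standard errors are those implied by the F statistic and are approximate. Genes of at least 1 FPKM in 3 libraries were also tested by limma 3.58.1 after adding 1 and taking log2, which shrinks differences between low values. DESeq2 1.42.0 was an alternative. Printed CPM carry TMM factors, while CPM over FPKM used plain totals. Level classes used the mean log2 CPM. Scripts were tested on simulated data. Symbols came from an Ensembl name table (22595 of 25190 IDs matched).

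Members and lists were chosen with earlier results of these data known. Genes named were those called, the 6 highest by FPKM and by CPM, the 5 longest, the 4 highest and lowest in CPM over FPKM, photoreceptor genes, and genes called on both scales or in opposite directions. One named item is not reported here. Others illustrate a list and were chosen after their values were seen. Alternatives were other scalings, filters, tests, span minimums, level classes and a replicate block, and leaving out each replicate.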

Additional observations from a re-analysis of the deposited data

How the results depend on the processing

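The count of very long genes called by edgeR stayed between 6 and 8 under DESeq2, both other scalings, both other filters and an adjusted p under 0.05. With each library left out it was between 6 and 10. The share called over all genes moved as well. It was 5.10% with DESeq2, 3.17 to 4.87% with the other scalings and filters, and 2.33 to 3.04% with a library left out. Without WT replicate 1, PCDH15 on chromosome 12, SHANK3 and ZFPM2 were added, and without any of the other 5 libraries TENM2 was lost. The count was 20 at a span minimum of 200 kb (5 higher and 15 lower) and 3 at 500 kb (1 higher and 2 lower). There the number of very long genes differs by construction, and 3.69% of all genes were called. Fitted with the replicate number as a block, the count was 16, of which 15 were lower. All 7 were among them, and the 9 added include PCDH15 on chromosome 12, MSI2, SHANK3, cacna1db and CACNA1G. Of all genes 5.71% were called in that fit. Same-numbered samples deviated together with correlations of 0.12, 0.05 and 0.04 over all tested genes and 0.22, 0.29 and 0.16 over the very long genes. Over all tested genes every sample correlated best with its own number. The sources used here do not say whether same-numbered pools were collected or processed together, and a shared batch was not tested. Without the 14 genes covered to 50% or more, an alternative chosen after seeing the data, it was 7. The members called on FPKM numbered 1 without an FPKM filter and 1 with each library left out; PCDH15 lost the call without WT replicate 3 (adjusted p = 0.10, limma), and CAMTA1 without each of the other 5.

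The median log2 fold change lay between -0.13 (without WT replicate 1) and 0.06 (without *pde6c* replicate 1), and its difference from shorter genes of equal level between -0.02 and 0.10 with a library left out and was -0.03 with classes by FPKM. The share of fragments, *pde6c* minus WT, was -0.03 percentage points, and between -0.53 and 0.32 with a library left out. It was -0.24 without the 10 most counted genes of each library, an alternative chosen after seeing the data. These 10 include very long genes such as MSI2, and the very long genes left out differ between libraries. The log2 of CPM over FPKM, *pde6c* minus WT, was 0.16, between 0.09 and 0.20 with a library left out, and 0.046 at 500 kb.

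Of the named genes that were not called, 7 turned sign. Under scaling by the total count, ENSDARG00000017795, MACROD2 and IL1RAPL2 had 0.0446, 0.0402 and 0.0294. With a library left out, log2 fold changes ran from -0.12 to 0.10 for ASIC2, -0.0619 to 0.24 for IQSEC1, -0.18 to 0.12 for ENSDARG00000017795, -0.0601 to 0.14 for CTNNA2, -0.14 to 0.0612 for MACROD2, -0.17 to 0.0386 for IL1RAPL2 and -0.0568 to 0.22 for GRID1 on chromosome 12. The cause was not tested. Depth limits little here, as 6 of the 158 genes had under 10 CPM, but FPKM of the 18 genes under 1 FPKM carry no usable comparison.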
